A study of Rattus norvegicus with 16 samples.

Results

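GABA-A receptor subunits were examined in the rat hippocampus after traumatic brain injury (TBI). The members are the 7 subunit genes Gabra2, Gabra3, Gabra4, Gabra5, Gabrb1, Gabrb2 and Gabrd. They were found by name, as every non-control probe whose gene name in the scanner files equals 1 of the 7 symbols. Each gene had 1 probe, so members were 7 of 30367 probes on the array, and all of them were among the 22827 probes tested.

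Hippocampal messenger RNA was measured in male Sprague-Dawley rats on a single-colour Agilent array, 24 hours after injury or its equivalent, with 1 array per rat. Naive rats (3 arrays) were neither anesthetized nor injured, Sham rats (2 arrays) were anesthetized and prepared for surgery without injury, and TBI rats (3 arrays) received a severe fluid percussion injury, in which a pulse of fluid strikes the exposed dura on one side. TBI+PMI (3 arrays, 250 mg/kg), TBI+JM6 (3 arrays, 400 mg/kg) and TBI+E33 rats (2 arrays, 33 ug/kg) received the same injury and a drug. The study's methods name PMI as PMI-006 and E33 as 17β-estradiol, and JM6 is an inhibitor of kynurenine 3-monooxygenase. JM6 and PMI were given by mouth. The labels give the route of E33 as subcutaneous, and the methods as intraperitoneal. Sham rats share the anesthesia and preparation with every injured group, and Naive rats do not, so Sham against Naive measures handling, anesthesia and surgery together.

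GABA-A receptors are pentameric chloride channels that carry most fast inhibition in the brain. The α and β subunits together form the GABA binding site, and a γ or a δ subunit completes the channel. Many receptors with a γ subunit are held at synapses, whereas receptors with δ, and many of those with α5, lie outside them and give a steady, tonic inhibition. In the hippocampus δ pairs mainly with α4 in dentate granule cells, and α5 carries much of the tonic inhibition of pyramidal cells. The α subunit also sets drug sensitivity, since receptors with α4 do not bind classical benzodiazepines.

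Each gene is read on this array by a probe of 60 bases, and the sequences show which part of each transcript was measured. Positions are on rn4, as the scanner files give them. The probes of Gabra2 (14:39661796-39662852, plus strand) and Gabra3 (X:158416663-158422492, minus strand) are each spread over a genomic span longer than the probe, 1057 and 5830 bases, so both cross a splice junction. In the best ungapped alignment, 33 of 54 overlapping bases are the same in the Gabra2 and Gabra3 probes, and these are in capitals. This was the highest identity among the 21 pairs of member probes, at 61.1%. The other 20 pairs had at most 41.2%.
Gabra2: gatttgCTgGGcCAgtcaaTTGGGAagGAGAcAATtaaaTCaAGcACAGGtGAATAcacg
Gabra3: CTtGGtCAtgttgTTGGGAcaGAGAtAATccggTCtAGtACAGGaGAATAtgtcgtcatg
The probes of Gabra4 (14:39122375-39122434, plus strand) and Gabra5 (1:108844189-108844248, minus strand) each lie in 1 unbroken stretch, and the Gabrb2 probe (10:27819086-27819145, plus strand) ends on a stop codon, which is in capitals.
Gabra4: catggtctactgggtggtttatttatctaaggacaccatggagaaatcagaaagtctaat
Gabra5: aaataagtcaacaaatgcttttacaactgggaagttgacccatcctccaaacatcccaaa
Gabrb2: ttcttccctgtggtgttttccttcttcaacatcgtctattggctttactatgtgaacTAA
The probes of Gabrb1 (14:38530433-38530492, minus strand) and Gabrd (5:172203200-172203260, minus strand) are not printed. The GC content was 38.3% for Gabra4, Gabra5, Gabrb1 and Gabrb2, 45% for Gabra2 and Gabra3 and 55% for Gabrd. Gabrb1, Gabra4 and Gabra2 lie beside each other on chromosome 14, with Gabrg1 next to them. Gabra5 lies beside Gabrg3 on chromosome 1, and Gabrb2 lies in a cluster with Gabra6 on chromosome 10.

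The arrays fell into separate batches. The Naive, Sham and TBI arrays were scanned in one session, on 2 slides, and all drug arrays in another session, on the other 2 slides. In the drug session 20259 to 24984 probes were well above background (the scanner's own flag), and in the other session 16282 to 18245. No Sham array shared a slide with a TBI array, so TBI against Sham also compares slides. Injury and slide can be separated there only through the Naive arrays, with Naive 1 and 2 beside Sham and Naive 3 beside TBI. Drug and scanning session cannot be told apart in any comparison of a drug group with TBI, and all such values below carry this limit. Correlations between arrays over all probes tested ran from 0.918 to 0.987. In whole tissue, fewer cells of a type and less RNA per cell cannot be told apart.

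Most subunits were measurable throughout. Gabra2, Gabra4, Gabra5 and Gabrd were well above background on all 16 arrays. Gabrb1 was well above background on 15, and on the Naive 1 array its spot was flagged as an outlier by the scanner software and left out. Gabra3 was above background on 0 of 8 Naive, Sham and TBI arrays, and on 1 of 3 TBI+PMI, 2 of 3 TBI+JM6 and 2 of 2 TBI+E33 arrays. Gabrb2 was above background on 0 of the same 8 arrays, on 2 of 3 TBI+PMI arrays, and on all TBI+JM6 and TBI+E33 arrays. For these 2 genes the Naive, Sham and TBI values are only upper limits. Gabra3 passed the filter for testing through the TBI+E33 arrays, and Gabrb2 through the TBI+JM6 and TBI+E33 arrays. A difference of these groups from TBI was thus favoured by the filter. The other drug groups share their scanning session, so the filter can favour their differences from TBI as well.

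**Figure D1:**
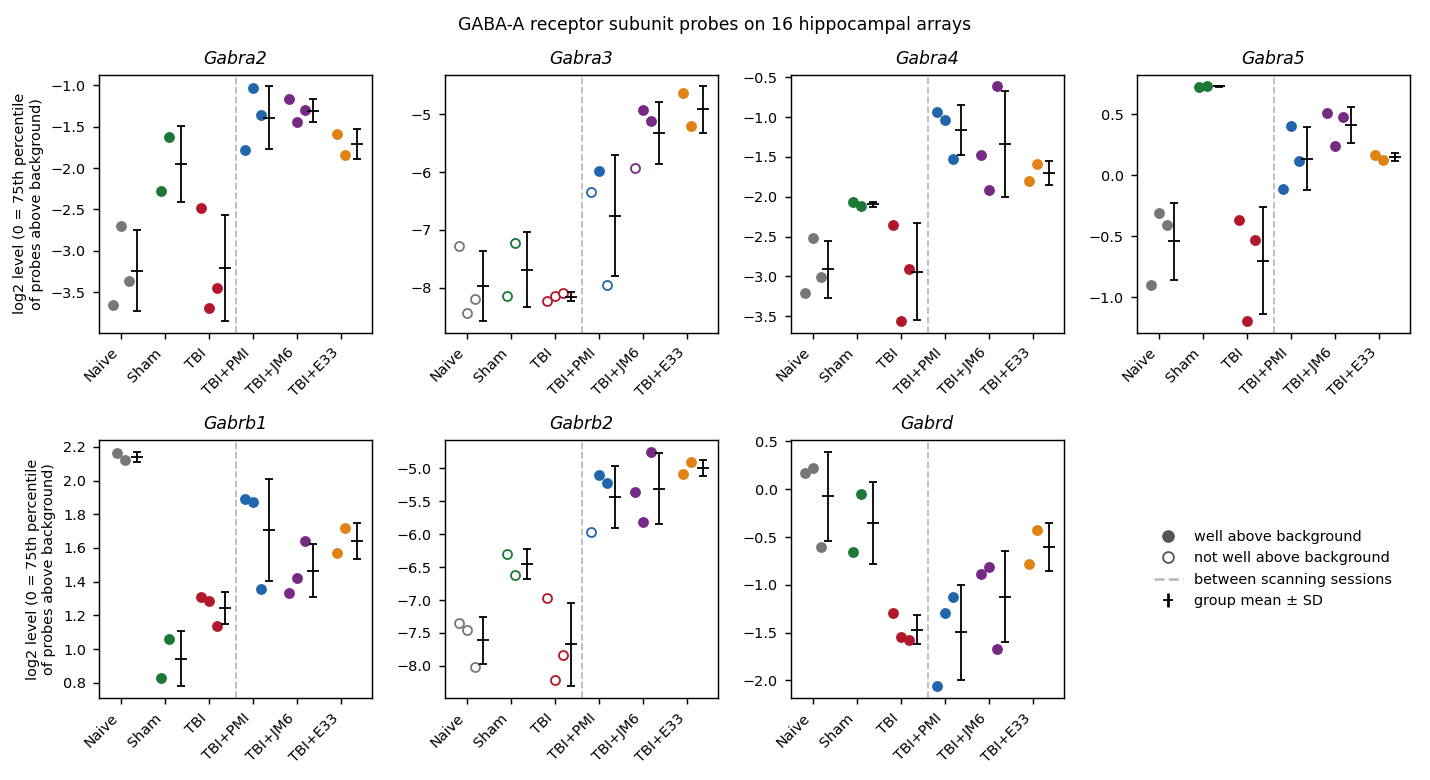
Level of each subunit probe on each array, as log2 of the intensity over the array's 75th percentile of probes above background, by group, with the mean ± SD beside the points (open points are not well above background, and the dashed line separates the scanning sessions). Gabra5 is high on both Sham arrays, Gabrb1 on the Naive arrays, and Gabrd is lower on the 3 TBI arrays than on every Naive and Sham array.

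Sham against Naive asks what anesthesia and preparation did without injury. Gabra5 rose and Gabrb1 fell. This was 2 of 7 subunits called by limma at an adjusted p under 0.05, against 8.08% of all 22784 probes tested (6.57% higher and 1.52% lower). The α5 subunit had intensities of 806, 1058 and 1061 in Naive and of 2683 and 2376 in Sham rats. Both Sham arrays were above every Naive array. The log2 fold change was 1.27 with a standard error (SE) of 0.26, or 2.41-fold (limma adjusted p = 0.0121). The β1 subunit went the other way. Its intensity was 5866 and 6129 on the 2 Naive arrays with a value, and 2875 and 2988 on the Sham arrays. The groups did not overlap, and the log2 fold change was -1.20 (SE 0.21), or 2.29-fold lower (limma adjusted p = 0.00858).

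Gabra2 and Gabra4 had higher means in Sham than in Naive rats without passing the test. Gabra2, which is enriched at synapses on the pyramidal axon initial segment, read 119, 202 and 136 in Naive and 335 and 464 in Sham rats. Its log2 difference of 1.29 (SE 0.37) had a limma adjusted p of 0.0519. Gabra4 differed by 0.82 (limma adjusted p = 0.235), from 162, 229 and 176 to 386 and 331. Here too both Sham arrays were above all Naive arrays, which groups this small can show without a difference. Gabrd differed by -0.28 with overlapping groups. The median log2 change of the 5 measured members was 0.82, beside 0.06 over all probes tested. Naive 1 and 2 shared a slide with both Sham arrays, and within that slide the difference was 1.33 for Gabra5. For Gabrb1 it was -1.22, against Naive 2 alone, since Naive 1 has no Gabrb1 value. Both calls were lost without Sham 1 (limma adjusted p = 0.0653 and 0.0561), and that of Gabra5 also without Sham 2 (limma adjusted p = 0.0791).

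TBI against Sham asks what the injury added, but it also compares slides, which only the Naive arrays link. Gabra5 fell, and it was the only subunit called (1 of 7, against 9.41% of all probes, 6.49% lower). Its intensities were 1103, 571 and 1121 in TBI rats, all below the 2376 of the lower Sham array. The log2 fold change was -1.43 (SE 0.26), or 2.69-fold lower (limma adjusted p = 0.0097). After quantile normalization, which forces all arrays to one distribution, it was -1.32 (limma adjusted p = 0.0206). Without Sham 1 the same size of change no longer passed (limma adjusted p = 0.056). Between TBI and Naive rats Gabra5 differed by less than the spread, -0.16 with a 95% interval of -0.65 to 0.34.

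Gabra2 and Gabrd stood close to the threshold. Gabra2 read 254, 101 and 148 in TBI rats, all below both Sham arrays, a log2 difference of -1.26 (SE 0.37, limma adjusted p = 0.0514). Gabrd, the subunit of extrasynaptic receptors, read 579, 449 and 544 in TBI rats against 1030 and 1387 in Sham rats. The groups did not overlap and the difference was -1.12 (SE 0.35, limma adjusted p = 0.0654). Gabra4 differed by -0.85 (limma adjusted p = 0.191), and the lowest TBI array read 111. Gabrb1 was the exception in sign. It read 3516, 3189 and 3560 in TBI rats, slightly above both Sham arrays, a difference of 0.30 (limma adjusted p = 0.358). Gabra3 and Gabrb2 were not well above background in either group, so no fold is given. The median over the 5 measured members was -1.12, beside -0.03 over all probes tested.

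TBI against Naive compares injured rats with untouched ones. Gabrd and Gabrb1 fell, 2 of 7 subunits against 4.71% of all probes (1.73% lower). Gabrd read 1690, 1532 and 925 in Naive rats, and all TBI arrays were below these. The log2 fold change was -1.40 (SE 0.32), or 2.64-fold lower (limma adjusted p = 0.0279). It was not called without Naive 1 (-1.28), Naive 2 (-1.25), TBI 2 (-1.36) or TBI 3 (-1.35). Gabrb1 fell by 0.90 on the log2 scale (SE 0.19), or 1.87-fold (limma adjusted p = 0.0256). It was not called without Naive 1 (-0.90), although Naive 1 has no Gabrb1 value, nor without Naive 2 (-0.88), Naive 3 (-0.92), TBI 2 (-0.92) or TBI 3 (-0.85). Against Naive 3, the Naive array on the slide of the TBI arrays, Gabrd differed by -0.86 and Gabrb1 by -0.88. Gabra2, Gabra4 and Gabra5 differed by -0.16 to 0.03, with overlapping groups. The median over the 5 measured members was -0.16, beside 0.04 over all probes. None of the 5 calls among Naive, Sham and TBI passed after a normexp background correction, in a fit of the compared groups alone, or with the slide as a fixed block.

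**Figure D2:**
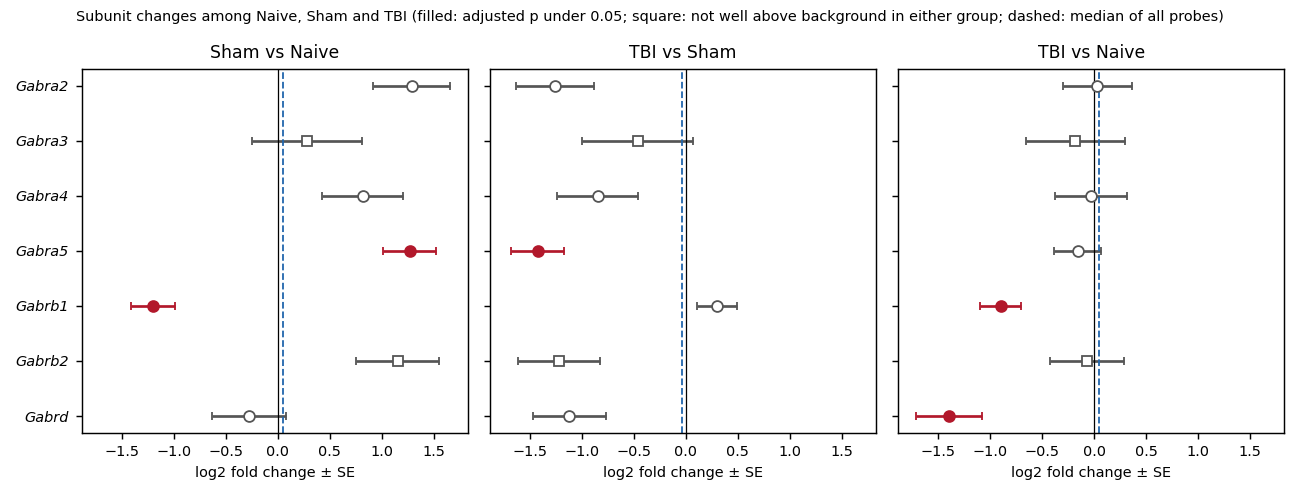
Log2 fold change ± SE of each subunit probe in Sham against Naive, TBI against Sham and TBI against Naive (filled points have a limma adjusted p under 0.05, squares are not well above background in either group, and the dashed line is the median of all probes). Gabra5 lies at 1.27 in Sham against Naive and at -1.43 in TBI against Sham, and Gabrb1 and Gabrd lie at -0.90 and -1.40 in TBI against Naive.

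The 3 groups were thus ordered differently by subunit. For Gabra2, Gabra4 and Gabra5 the Sham mean was highest and the TBI and Naive means differed by less than their spread. For Gabrb1 the order was Naive, TBI, Sham, and for Gabrd it was Naive, Sham, TBI, with Naive and Sham overlapping. The drug groups were left out of this order because their arrays were scanned separately. The comparisons share their arrays, so the opposite signs of Gabra5 in Sham against Naive and in TBI against Sham rest on the same 2 Sham arrays.

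Markers of other cells differed in the same comparisons, and their counts stand against the 8.08%, 9.41% and 4.71% of all probes called in Sham against Naive, TBI against Sham and TBI against Naive. Of 7 neuronal markers on the array, Snap25 (-0.68) and Syn1 (-1.34) fell in TBI against Sham, and Syt1 (1.36) and Syn1 (1.32) rose in Sham against Naive. None of the 7 was called in either comparison after quantile normalization. The summed level of the 7, in units of the array's 75th percentile, was 25.9 to 34.8 in Naive, 35.9 to 42.5 in Sham and 28.0 to 34.5 in TBI rats. Of 6 dentate granule cell markers, 5 were tested and 2 fell in TBI against Sham (C1ql2 -1.78, Calb1 -1.11), and the sum was 2.38 to 4.95 in Naive, 2.55 to 4.78 in Sham and 0.853 to 2.63 in TBI rats. In TBI against Naive 1 of the 5 dentate markers fell. After quantile normalization 1 dentate marker was called in TBI against Sham and 0 in TBI against Naive. Tdo2 was below background in every group and Prox1 on all Sham and TBI arrays. Of 6 CA field markers, Wfs1 (1.43) and Pou3f1 (1.37) rose in Sham against Naive and Fibcd1 (-0.88) fell in TBI against Sham, and after quantile normalization 1 and 0 were called. Of 6 oligodendrocyte markers 3 fell in TBI against Sham (Cnp and Mobp among them), 1 rose in Sham against Naive and 0 were called in TBI against Naive. These counts were the same after quantile normalization. The sums were 82.2 to 117 in Naive, 110 to 115 in Sham and 54.0 to 109 in TBI rats. In TBI against Naive 2 of 8 interneuron markers fell (Reln -1.20, Lhx6 -0.76), with sums of 10.4 to 13.6 in Naive and 8.22 to 9.81 in TBI rats. In the same comparison the astrocyte marker Gfap rose (2.53), Aldh1l1 fell (-0.80), and 4 of 5 leukocyte markers rose, with sums of 0.119 to 0.138 in Naive and 0.649 to 3.22 in TBI rats. After quantile normalization 2 of the 5 leukocyte markers were called. In TBI against Sham 3 of 6 microglial markers were called (Cd68 2.68, Itgam 1.40 and P2ry12 -1.41), also after quantile normalization, with sums of 5.27 to 8.27 in Sham and 6.84 to 9.19 in TBI rats. In the same comparison 2 of 5 leukocyte markers rose (1 after quantile normalization), and 1 of 4 endothelial markers, Cldn5, fell (-1.23; none after quantile normalization). Of 5 thalamus markers 1 was called lower in Sham against Naive under both scalings, Rora, which was above background in neither group, and the median was -1.10, with sums of 0.378 to 2.23 in Naive, 0.355 to 0.378 in Sham and 0.283 to 0.560 in TBI rats. Choroid plexus markers, which come from tissue beside the hippocampus, summed to 2.34 to 76.6 on the Naive, 4.89 to 121 on the Sham and 0.187 to 3.52 on the TBI arrays. The part of these markers in the subunit values was not tested.

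Drug groups against TBI ask whether the drugs changed the subunits after injury, and here the scale of the arrays differed. Over all probes the median log2 difference from TBI was 0.99 for TBI+JM6, 0.79 for TBI+PMI and 1.08 for TBI+E33. In TBI+JM6 rats 5 of 7 subunits were called, all higher, against 70.1% of all probes (69.9% higher). In TBI+PMI rats 6 of 7 were called higher, against 56.7% of all probes called and 56.7% higher. In TBI+E33 rats 6 of 7 were called higher, against 70.3% (70.2% higher). Without Gabra3 and Gabrb2, which no TBI array measured, the counts were 3, 4 and 4 of 5. These shares are to be read against the shift of the whole array. Under quantile normalization the median difference over all probes was -0.0024, -0.015 and -0.0033, and then 2, 2 and 0 of 7 subunits were called, against 27.2%, 19.2% and 20.4% of all probes.

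Gabra2 passed under both scalings in TBI+JM6 and TBI+PMI rats. It read 741, 685 and 561 in TBI+JM6, 492, 818 and 803 in TBI+PMI and 526 and 349 in TBI+E33 rats. Every drug array was above the highest TBI array, 254. The intensities printed are not scaled between arrays. The 75th percentile over all probes was 501 to 533 on the TBI arrays and 825 to 1114 on the drug arrays. The log2 fold change was 1.91 for TBI+JM6 (limma adjusted p = 0.000326) and 1.82 for TBI+PMI (limma adjusted p = 0.000676). After quantile normalization it was 0.97 (limma adjusted p = 0.039) and 1.04 (limma adjusted p = 0.0374). Both calls were lost when a trend with probe GC content was removed, at 0.65 (limma adjusted p = 0.135) and 0.77 (limma adjusted p = 0.0851). For TBI+E33 the change was 2.83-fold (limma adjusted p = 0.00348), and 0.46 on the log2 scale after quantile normalization (limma adjusted p = 0.372).

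Gabra4, the usual partner of δ, read 599, 494 and 901 in TBI+JM6, 888, 810 and 716 in TBI+PMI and 452 and 414 in TBI+E33 rats, all above the TBI arrays. The log2 fold change was 1.77 (SE 0.35) for TBI+PMI, and after quantile normalization it was 1.02 (limma adjusted p = 0.042). With the GC trend removed it was 0.76 and did not pass (limma adjusted p = 0.0742). For TBI+JM6 it was 1.60 (limma adjusted p = 0.00148) and for TBI+E33 1.24 (limma adjusted p = 0.0131), and after quantile normalization 0.67 and 0.21, which did not pass. Gabra5 read 2375, 2206 and 1918 in TBI+JM6, 1574, 2203 and 2230 in TBI+PMI and 1775 and 1360 in TBI+E33 rats. Its log2 fold changes of 1.11, 0.83 and 0.85 were close to or below the shift of all probes, and 0.42, 0.28 and 0.11 after quantile normalization, with no call.

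Gabrb1 and Gabrd differed from TBI by less than the median probe did. Gabrb1 read 4202, 4996 and 4303 in TBI+JM6, 6300, 6097 and 5272 in TBI+PMI and 4680 and 4109 in TBI+E33 rats. Its log2 difference was 0.22, 0.46 and 0.40, and of these the TBI+PMI value was called (limma adjusted p = 0.0384), and was 0.0015 after quantile normalization. In TBI+JM6 it was -0.37 after quantile normalization, a call in the opposite direction (limma adjusted p = 0.0289). Gabrd read 900, 1062 and 432 in TBI+JM6 and 406, 678 and 943 in TBI+PMI rats, which overlapped the TBI arrays, with differences of 0.34 and -0.03. In TBI+E33 rats it read 916 and 928, above all TBI arrays, and the log2 fold change of 0.86 passed (limma adjusted p = 0.0438), but was 0.05 after quantile normalization. Of the calls in the drug groups, those of Gabra3 and Gabrb1 in TBI+PMI and of Gabrd, Gabra5 and Gabra4 in TBI+E33 were lost when single arrays were left out. Without TBI+E33 2 Gabra4 (1.14), Gabra5 (0.87) and Gabrd (0.69) did not pass in TBI+E33, and without TBI+PMI 2 neither Gabra3 nor Gabrb1 (0.38) passed in TBI+PMI.

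Gabra3 and Gabrb2 were the weakest signals, and no array of the TBI group measured either. Gabra3 read 4.72, 4.63 and 5.95 in TBI, 20.9, 26.3 and 8.33 in TBI+PMI, 27.2, 61.4 and 39.6 in TBI+JM6 and 63.6 and 34.0 in TBI+E33 rats. Set against the lowest signal that the scanner called above background on the TBI arrays, the rise of Gabra3 was at least 1.56-fold in TBI+JM6 (limma adjusted p = 0.000256) and at least 2.07-fold in TBI+E33, the group through which it entered the test, so no p is given there. In TBI+PMI it was called (limma adjusted p = 0.0243), but its mean did not reach that limit, so no fold is given. Gabrb2, a β subunit of synaptic receptors, read 11.3, 4.39 and 7.11 in TBI and 27.0 to 54.8 over the 8 drug arrays. Its rise was at least 1.45-fold in TBI+PMI (limma adjusted p = 0.000264), and at least 1.58-fold in TBI+JM6 and 1.96-fold in TBI+E33, the groups through which it entered the test, again without a p. The p-values given for the other drug groups are not free of the filter either, since those arrays were scanned in the same session. None of these least folds exceeded the median shift of all probes from TBI. That shift was 0.99 on the log2 scale in TBI+JM6, 0.79 in TBI+PMI and 1.08 in TBI+E33. Neither gene passed after quantile normalization.

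**Figure D3:**
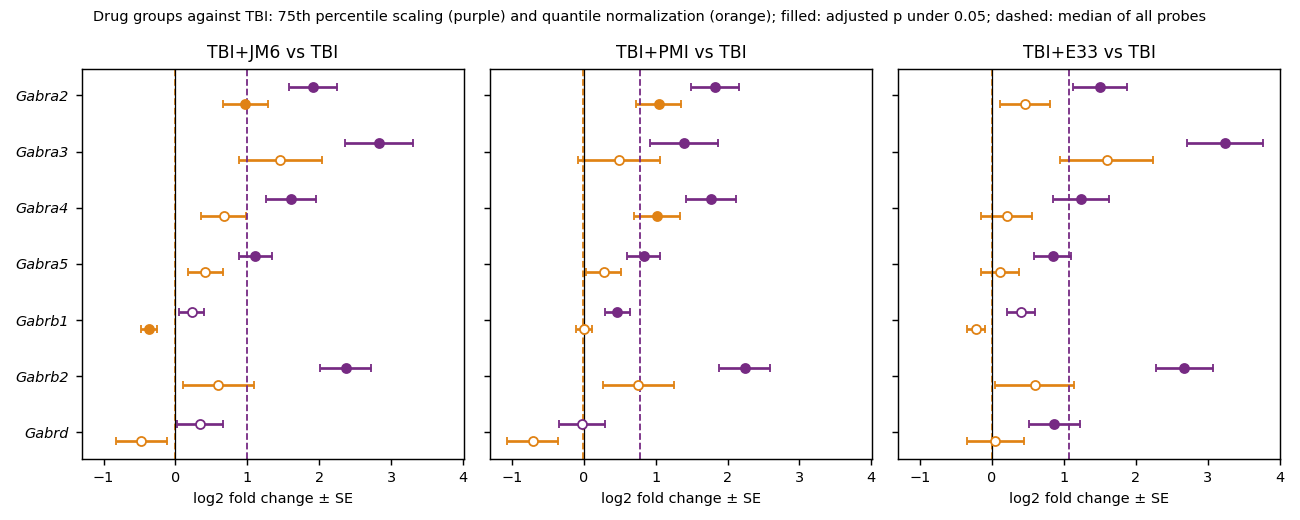
Log2 fold change ± SE of each subunit probe in the 3 drug groups against TBI under scaling to the 75th percentile (purple) and quantile normalization (orange), with filled points for a limma adjusted p under 0.05 and dashed lines for the median of all probes. Gabra3 and Gabrb2 were not above background on any TBI array, so their points are not measured folds. The purple points of Gabrb1 and Gabrd lie left of the purple line at 0.99, 0.79 and 1.08, and under quantile normalization Gabra2 stays filled for TBI+JM6 and TBI+PMI, Gabra4 for TBI+PMI and Gabrb1 for TBI+JM6.

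The drug groups were scanned in one session. All TBI+PMI arrays were on one slide and both TBI+E33 arrays on the other, so this pair also compares slides. Only the TBI+JM6 arrays, which were on both slides, link them. The doses differ, and the drugs are not analogs of each other. Of 7 subunits 0 were called by limma in TBI+JM6 against TBI+PMI, in TBI+JM6 against TBI+E33 and in TBI+PMI against TBI+E33, beside 0.0131%, 0.0175% and 0.11% of all probes. At an unadjusted p under 0.05 limma gave 1, 0 and 2 subunits, beside 8.84%, 2.81% and 15% of all probes. These were Gabra3 in the first and last comparison, with no difference given because it was above background on 1 of 3 TBI+PMI arrays, and Gabrd in TBI+PMI against TBI+E33 (-0.89). In the last comparison the filter favoured a difference of Gabra3, which entered the test through the TBI+E33 arrays. The methods' t-test gave 0 in each, beside 6.81%, 2.72% and 15% of all probes. The intervals were wide. For Gabra2 the 95% interval of the difference was -0.63 to 0.81 between TBI+JM6 and TBI+PMI and -0.40 to 1.21 between TBI+JM6 and TBI+E33. For Gabrd it was -0.32 to 1.06, -1.29 to 0.25 and -1.66 to -0.12 in the 3 comparisons, before adjustment. Within the slide that held TBI+JM6 2 and 3 and both TBI+E33 arrays, Gabrd differed by -0.64 and Gabra2 by 0.34.

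Differences between subunits on one array do not change when that array is divided by a constant. The shift between the sessions was not equal for all probes, however. The median difference of TBI+PMI from TBI was 0.79 over all probes tested and 0.54 over those above background on all arrays. Drug and session thus cannot be told apart in these differences either. Relative to the Naive mean, Gabra4 minus Gabrd was 1.10 in Sham, 1.37 in TBI, 3.17 in TBI+PMI, 2.63 in TBI+JM6 and 1.75 in TBI+E33 rats, on the log2 scale. The TBI arrays ran from 0.82 to 1.78 and the TBI+PMI arrays from 2.44 to 3.97, without overlap. TBI+JM6 (1.73 to 3.90) and TBI+E33 (1.67 to 1.82) overlapped TBI. Gabra5 minus Gabrb1 was highest in Sham rats, at 2.29 ± 0.16 (SD, n = 2), and 0.56 ± 0.47 (SD, n = 3) in TBI rats. In the drug groups it was 0.93 in TBI+PMI, 1.44 in TBI+JM6 rats, and 0.91 and 1.10 on the 2 TBI+E33 arrays. The pairs were chosen after their values were seen and no test was made.

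**Figure D4:**
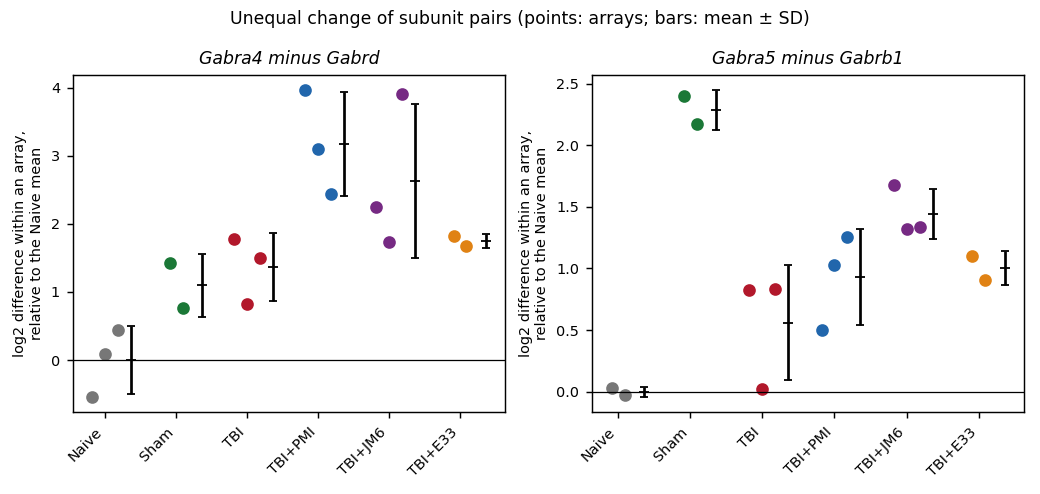
Log2 difference between 2 subunits on the same array, relative to its Naive mean, for Gabra4 minus Gabrd and for Gabra5 minus Gabrb1, with points for arrays and bars for mean ± SD. The 3 TBI+PMI arrays lie between 2.44 and 3.97 for Gabra4 minus Gabrd, above all TBI arrays, which were scanned in another session. Both Sham arrays lie above 2.1 for Gabra5 minus Gabrb1.

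The α2, α4 and α5 probes varied together from array to array. After each session's mean was subtracted, Pearson's r over the 16 arrays was 0.89 for Gabra2 with Gabra5, 0.72 for Gabra2 with Gabra4 and 0.71 for Gabra4 with Gabra5. Gabrb1 had values of -0.32 with Gabra2 and -0.38 with Gabra5 over 15 arrays, and Gabrd had values between -0.13 and 0.28 with these 4. Gabra3 and Gabrb2 are left out, since they were above background on 5 and 7 of the 16 arrays. The arrays share groups and slides, so these are descriptions. Among probes above background on all 16 arrays, those most like Gabra5 were Itpr1 (0.96), an endoplasmic calcium channel, and Nr3c2 (0.95), the mineralocorticoid receptor. Those most like Gabra2 were Itpr1, Serinc1 and Dync1i1 (0.93 each). Gabra4 was followed by Rem2 (0.94), Dclk2 (0.92) and Slc9a4 (0.91), and Gabrd by Plxnb1 (0.95), Timp4 and Pde1b (0.94 each). Gabrb1 was followed by Synj1, Trap1 and Glg1 (0.90 to 0.92).

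The members also differ in base composition before their transcription start. The 250 bases before the start of Gabra4, Gabra5 and Gabrb1 are shown as examples of high and middle GC content, from RefSeq on GRCr8, with each GGGCGG (or CCGCCC on the other strand), the GC box bound by Sp1-type factors, in capitals.
Gabra4 (chr14:36944497-36944746, plus strand): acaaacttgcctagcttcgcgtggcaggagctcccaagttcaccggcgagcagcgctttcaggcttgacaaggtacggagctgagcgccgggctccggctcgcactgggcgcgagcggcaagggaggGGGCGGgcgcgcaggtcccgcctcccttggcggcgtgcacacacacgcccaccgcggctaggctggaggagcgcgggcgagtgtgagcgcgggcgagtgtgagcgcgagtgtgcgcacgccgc
Gabra5 (chr1:117516607-117516856, minus strand): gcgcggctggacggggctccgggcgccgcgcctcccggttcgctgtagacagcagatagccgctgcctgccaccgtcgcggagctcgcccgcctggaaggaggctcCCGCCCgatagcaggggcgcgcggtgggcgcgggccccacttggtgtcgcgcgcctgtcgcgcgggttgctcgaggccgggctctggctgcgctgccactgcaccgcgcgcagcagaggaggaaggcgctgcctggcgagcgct
Gabrb1 (chr14:36902894-36903143, minus strand): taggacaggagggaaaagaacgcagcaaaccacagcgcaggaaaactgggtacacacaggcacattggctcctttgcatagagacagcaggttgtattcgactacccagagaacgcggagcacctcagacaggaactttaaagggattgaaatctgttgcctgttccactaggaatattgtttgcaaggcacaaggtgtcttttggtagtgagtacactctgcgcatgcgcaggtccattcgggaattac
The GC content of the windows was 71.6% for Gabra4, 76.4% for Gabra5 and 49.2% for Gabrb1, and 43.2% for Gabrb2 and 40.4% for Gabra3, which are not printed, beside a median of 51.2% over 33469 RefSeq promoters. Of the 6 members with an entry, Gabra4 and Gabra5 held 1 GC box and Gabrd (74% GC) held 4, and Gabra3, Gabrb1 and Gabrb2 held none. The motif was in 30.5% of all promoters. TGACG, the core of the CRE that CREB binds and contained in the full TGACGTCA, was in none of the 6, and in 18.2% of all promoters (1.59% for TGACGTCA). TATAAA was in Gabra3 and in 12.9% of all. Both strands were searched. Gabra2 was not in the table.

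The rest of the GABA pathway was counted from 5 lists. In TBI against Sham 5 of 39 genes tested were called, 1 higher and 4 lower, beside 9.41% of all probes, and the median was -0.38. Of 12 other GABA-A subunits on the array, 7 were tested and 3 fell. Among them was Gabrg1 (-1.16, limma adjusted p = 0.0261), named after its value was seen. Of 8 genes of GABA synthesis, packaging, uptake and breakdown, 1 fell, Abat, the enzyme that degrades GABA (-0.79, limma adjusted p = 0.0432). Of 16 anchoring and trafficking genes 1 rose, Nlgn2, the adhesion protein of inhibitory synapses (0.89, limma adjusted p = 0.0411). None of 3 chloride transporters and channels and none of 5 GABA-B receptor genes was called. After quantile normalization 3 of the 39 were called, 1 higher and 2 lower.

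**Figure D5:**
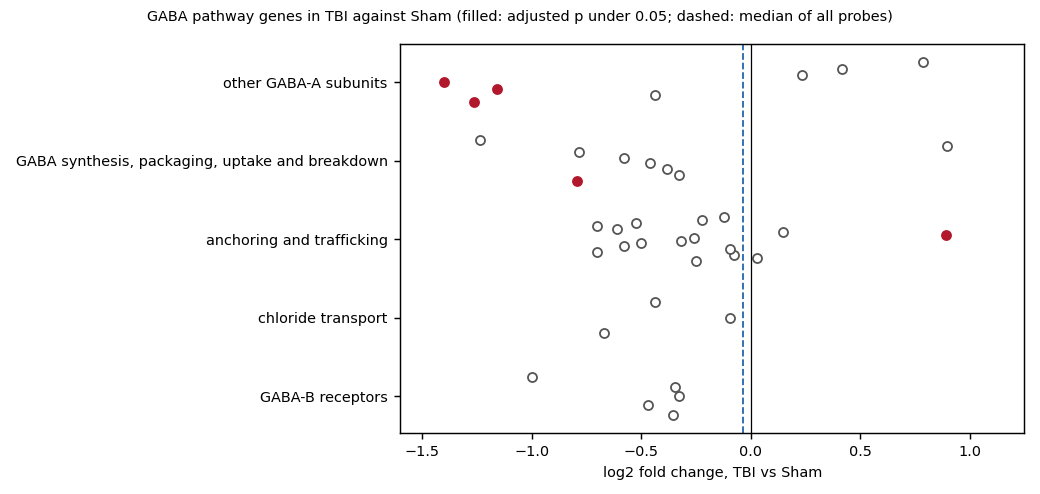
Log2 fold change in TBI against Sham of 39 genes in 5 GABA pathway lists (1 point per gene, filled for a limma adjusted p under 0.05, dashed line for the median of all probes). The 3 filled subunits all lie to the left of 0, Abat lies at -0.79 and Nlgn2 is the only filled point on the right, at 0.89.

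Sham against Naive called 1 of the 39 pathway genes, which rose, beside 8.08% of all probes. TBI against Naive called 1 of 39, Hap1, a trafficking protein, which fell by 1.17 on the log2 scale and is named here after its value was seen, beside 4.71% of all probes. After quantile normalization 5 were called in TBI against Naive, 1 higher and 4 lower. Against TBI, 26 of 39 were higher in TBI+JM6, 17 in TBI+PMI and 26 in TBI+E33, and 0 lower, beside 69.9%, 56.7% and 70.2% of all probes called higher. After quantile normalization the counts were 5 higher and 3 lower, 3 higher and 2 lower, and 2 higher and 3 lower. Between the drug groups 0 of 39 were called.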

How the data were processed

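Rat hippocampal RNA was hybridised to 16 single-colour arrays. The scanner files, as deposited, hold an intensity per spot from Agilent Feature Extraction 9.5.3.1, background subtracted and detrended but not normalized between arrays. The matrix deposited by the authors, a linear ratio to each array's 75th percentile according to the authors' methods, served as an alternative. Its median differences from TBI over all probes were -0.0038, -0.0034 and -0.0024 in TBI+JM6, TBI+PMI and TBI+E33. Quantile normalization gave -0.0024, -0.015 and -0.0033, and the 75th percentile scaling used here gave 0.99, 0.79 and 1.08. In these medians the matrix was close to quantile normalization, so it is not a separate check of percentile scaling. The cause was not tested. Probe positions are on rn4.

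The 42877 non-control spots were averaged by probe without outlier-flagged spots, and each array was divided by its 75th percentile of probes well above background. Following the methods' filter, a probe was tested if all arrays of 1 or more groups were well above background. Tests were made on the log2 scale with limma 3.58.1 (R 4.3.3), in 1 fit for all 16 arrays with 10 residual degrees of freedom. P-values were adjusted by Benjamini-Hochberg over all probes tested, and those under 0.05 are called. Intervals are 95% and unadjusted. The methods' t-test used an unadjusted p under 0.05 and 1.2-fold. The number of arrays limits the precision. Where a group had no array above background, the fold was set against the lowest signal above background on each array, or the probe's own if higher.

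Alternatives were normexp (offset 50), quantile normalization, scaling to the percentile of all probes, other filters on dim probes, the authors' matrix, the methods' t-test, the compared groups alone, slide and replicate blocks, removal of a probe GC trend, and each array left out. Keeping flagged spots was added after seeing the data. Members, lists and tests were chosen with earlier results of these data known. Member probes were described on all arrays, with full statistics for those called. Pathway genes were named where called in TBI against Sham, at most 2 a list. Some genes that fall under this rule are not reported here. Tested on simulated data (21901 probes), the fit for TBI vs. Sham found 32% of the changes of 2-fold and 64% of those of 4-fold, with 7 false calls. Figures were drawn with matplotlib 3.10.9 (Python 3.11.15).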

Additional observations from a re-analysis of the deposited data

How the results depend on the processing

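Over 612 repeats of the called subunit changes under the alternatives, 490 kept direction and call, 113 kept direction without the call, and 9 turned. Of these repeats 352 left out 1 array, and 318 of the 352 kept the call. Many left out an array outside the comparison, where the fold could not change, so the pooled count overstates stability. Of 22 called changes, 5 kept direction and call with normexp, 8 with quantile normalization and 9 with the authors' matrix. The counts of called subunits were 1 in TBI against Sham, 2 in TBI against Naive, 2 in Sham against Naive, and 5, 6 and 6 in TBI+JM6, TBI+PMI and TBI+E33 against TBI. With normexp they were 0, 0, 0, 3, 2 and 0. With quantile normalization the drug counts were 2, 2 and 0, and with the authors' matrix 1, 2 and 1. The medians of these settings over all probes were close to each other, so they are not separate checks. With the 75th percentile over all probes, TBI+PMI (3 higher) and TBI+E33 (2 higher, 1 lower) gave 3 each and TBI+JM6 4 (3 higher, 1 lower). Testing only probes above background on all arrays, which leaves 4 members, gave 3 in TBI against Sham, 1 in TBI against Naive, and 3 in TBI+JM6 and TBI+PMI. The methods' t-test gave 2 in TBI against Sham. The compared groups alone and the slide as a fixed block gave 0 in each comparison of Naive, Sham and TBI, and the slide as a random block (consensus correlation -0.087) gave 4 in TBI against Sham. With the GC trend removed TBI+JM6 gave 4 (2 higher, 2 lower), TBI+PMI 3 (1 higher, 2 lower) and TBI+E33 3 (2 higher, 1 lower).

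Leaving out each array in turn gave 0 to 3 in TBI against Sham, 0 to 2 in TBI against Naive, 0 to 3 in Sham against Naive, 5 in TBI+JM6, 4 to 6 in TBI+PMI, 3 to 7 in TBI+E33 and 0 between drugs. In TBI against Sham the count was 0 without Sham 1, 2 without Naive 2 and 3 without TBI 1. In Sham against Naive it was 0 without Sham 1 and 1 without Sham 2. In TBI+E33 it was 3 without TBI+E33 2.

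The turned values were all against TBI. With normexp, Gabra3 was -0.21 and Gabrb2 -0.33 in TBI+PMI. With the 75th percentile over all probes Gabrb1 was -0.18 in TBI+PMI. With the GC trend removed, Gabra5 was -0.0822 in TBI+JM6, -0.18 in TBI+PMI and -0.48 in TBI+E33, Gabrb1 was -0.55 in TBI+PMI, and Gabra4 (-0.0825) and Gabrd (-0.54) turned in TBI+E33. The cause was not tested.

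Arrays with the same replicate number did not deviate together (r from -0.19 to 0.18 over 36 pairs, against -0.18 to 0.21 over 70 pairs of different number). The replicate block gave 1, 2, 2, 5, 5 and 5 calls in the order above and 0 between drugs. Keeping the flagged Gabrb1 spot of Naive 1 gave -0.74 in TBI against Naive and -1.04 in Sham against Naive, both still called. Gabra3 and Gabrb2 are limited by signal over background outside the drug groups.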
